A study of Mus musculus with 12 samples.

Results

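Untreated mouse embryonic fibroblasts that lack GADD34 were compared with untreated wildtype fibroblasts. The group means rest on 6 of the 12 arrays of the series, chosen by array code: 3 of untreated knockout (KO) cells and 3 of untreated wildtype (WT) cells. It covers the 17600 autosomal genes with 1 symbol among 20753 genes measured. Both groups of cells came from embryos labelled 12.5 to 14.5do, were immortalised with SV40 large T antigen, and carry one strain label, which names B6.129P2-Ppp1r15A tm1.1.Ajf/Mmnc and C57Bl/6. WT and KO are the 2 genotype labels, and neither group received an agent. The other 6 arrays hold the same genotypes after 0.1 mM sodium arsenite for 2 h, and each of 3 replicate experiments held all 4 conditions. The labels do not give the number of embryos or of separately immortalised populations behind each genotype, so differences between populations and the loss of GADD34 cannot be told apart here. The p-values reflect variation among the replicate experiments, and the labels do not say whether these used separate cell populations.

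GADD34 is the protein made from Ppp1r15a. It brings protein phosphatase 1 to eIF2-alpha, the translation factor that stress kinases phosphorylate when proteins misfold, amino acids run short or oxidants accumulate. Phosphorylated eIF2-alpha lowers protein synthesis in general and favours translation of the factor ATF4. ATF4 and its target CHOP then switch on genes of amino acid supply and, among them, Ppp1r15a itself, which closes the loop by removing the phosphate. Embryonic fibroblasts are also a mixed population: cells from different parts of the body keep the Hox and other patterning genes of their place of origin in culture.

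Of 20753 genes tested 4181 passed the threshold used below (20.1%). Values are log2 array signals, and a difference is KO minus WT on that log2 scale with its standard error (SE) from a limma fit that pools the spread over all 12 arrays in 4 groups, 3 arrays in each. A gene is said to have risen or fallen when its p-value from limma, adjusted by Benjamini-Hochberg over all 20753 genes, lay under 0.05. Signals under 5.35, the 40th percentile of all array values, are taken as background, and a fold against a group whose mean lies there is given as a lower bound. Array medians were 5.92 to 5.96. The 3 WT arrays correlated with each other at 0.994 to 0.996 across genes, the 3 KO arrays at 0.988 to 0.994, and WT with KO arrays at 0.965 to 0.972.

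Between the untreated genotypes 1969 autosomal genes rose in KO cells (11.2% of those tested) and 1906 fell (10.8%), together 3875 (22.0%). With the replicate experiment as a block the counts were 2844 and 2764, together 5608 (31.9%). At least a 2-fold rise was called for 608 genes (3.45%) and at least a 2-fold fall for 577 (3.28%). A change of 8-fold or more was called for 78 rises (0.443%) and 74 falls (0.420%). The arrays of both groups did not overlap for 6473 genes (36.8%), which include 3851 of the 3875 called ones. Over all autosomal genes the median difference was -0.01 and the median absolute difference 0.18. Where a list of genes is counted below, these shares are the background against which its count should be read.

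Ppp1r15a was measured by 1 probe set. Its untreated WT signals were 8.45, 8.57 and 8.88 and its KO signals 6.42, 6.34 and 6.20. The groups did not overlap, the KO level stayed above background, and the difference was -2.31 ± 0.22 (adjusted p = 2.36e-05). No source at hand places this probe set relative to the deleted sequence, and outside the deletion it would check nothing about the labels.

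Around the eIF2 switch, 3 of 19 measured genes rose and 2 fell (26.3% called, against 22.0% of all autosomal genes), and the median difference was -0.05. The falls include Ppp1r15a, the targeted gene itself, so the share called does not describe the rest of the list. Ppp1r15b encodes CReP, the constitutive partner of the same phosphatase. Its signals were 10.18, 10.23 and 10.23 in WT and 10.42, 10.79 and 10.62 in KO cells. Every KO array lay above every WT array, by a small margin, and the difference was 0.40 ± 0.10 (adjusted p = 0.0154, which reached 0.0555 without WT array 1 or KO array 2). A second Ppp1r15b probe set differed by 0.16. Dnajc3, whose product P58IPK inhibits the eIF2 kinases PERK and PKR, rose by 0.64 ± 0.17 (adjusted p = 0.0177, up to 0.0742 without WT array 3 or KO array 1). Impact, which inhibits the kinase GCN2, rose by 0.57 ± 0.14 (adjusted p = 0.0117), although its other probe sets differed by 0.00 to 0.16. None of the 4 eIF2 kinases, the 3 phosphatase catalytic subunits or the 2 eIF2 subunits on the list passed the test (1 catalytic subunit fell with the replicate block). Among the subunits of eIF2B, the exchange factor that phosphorylated eIF2 blocks, Eif2b4 fell by 0.38 on the log2 scale. Eif2b3 differed by -0.57 ± 0.23 (adjusted p = 0.108, and 0.0012 with the replicate experiment as a block). With that block the counts were 4 rises and 5 falls, and 1 gene fell without WT array 2 or 3 or KO array 1 or 3.

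A list of known ATF4 and CHOP targets and of transcription factors of this response, Atf4 itself among them, held 28 measured genes. In KO cells 9 fell (32.1%) and 2 rose (7.1%), 20 had a difference below 0, and the median was -0.39 against -0.01 for all autosomal genes. Of its 7 transcription factor genes 4 fell and none rose. The 9 that fell were Chac1, Ddit3, Ddit4, Vldlr, Atf5, Psph, Asns, Atf3 and Atf4 itself, whose difference was -0.35. Ddit3, which encodes CHOP, had signals of 10.55, 10.40 and 10.63 in WT and 9.32, 8.92 and 9.33 in KO cells. The lowest WT array lay more than 1 log2 unit above the highest KO array (difference -1.33 ± 0.13, adjusted p = 3.35e-05), while a second Ddit3 probe set differed by -0.39. Chac1, a glutathione-degrading enzyme, had signals of 8.18, 8.94 and 8.91 in WT and 6.66, 6.86 and 7.80 in KO cells. The third KO array came close to the lowest WT array, and the difference of -1.57 ± 0.41 (adjusted p = 0.0184) reached an adjusted p of 0.0719 when WT array 2 or 3 or KO array 1 or 2 was left out. Ddit4, an inhibitor of the growth kinase mTORC1, fell by 1.24 ± 0.25 on the log2 scale (adjusted p = 0.00468). Ddit3 and Ddit4 lie on chromosome 10, where 28.8% of all genes fell, and the other falls 1 each on other chromosomes. Cth, the enzyme that makes cysteine from cystathionine, went the other way, with 7.11, 7.93 and 7.72 in WT and 8.22, 8.66 and 9.05 in KO cells (1.06 ± 0.23, adjusted p = 0.00759), and the amino acid transporter gene Slc38a2 rose by 0.53. Trib3, a pseudokinase of the same response, differed by -0.94 ± 0.40 with overlapping arrays (adjusted p = 0.128). Falls numbered 4 to 8 when any 1 untreated array was left out, the lowest count being that without WT array 3. Rises numbered 1 without WT array 2 or KO array 3.

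The composite element that ATF4 and C/EBP proteins bind was looked for in the promoters of this list, as the letters TGATGNAA on both strands of the 250 bases before each gene's start (RefSeq, GRCm38.p6). It was found in 7 of the 26 list members with a promoter sequence and in 2.76% of 13830 autosomal genes with one. The members had been listed as known targets or as factors of this response, and a match is a description of the letters. The 4 genes that fell and held a match are shown, so that the letters behind the count can be read, 5′ to 3′ on the gene's strand with the match in capitals and up to 25 bases on each side. The windows are chr2:119351024-119351081 (plus strand) for Chac1, chr6:7693210-7693257 (minus strand) for Asns, chr1:191183411-191183468 (minus strand) for Atf3 and chr19:27216795-27216852 (plus strand) for Vldlr. The matches begin 193, 23, 110 and 200 bases before the start, in that order.
Chac1: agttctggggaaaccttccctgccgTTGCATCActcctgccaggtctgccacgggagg
Asns: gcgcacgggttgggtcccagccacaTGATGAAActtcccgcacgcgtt
Atf3: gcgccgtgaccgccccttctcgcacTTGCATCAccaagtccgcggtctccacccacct
Vldlr: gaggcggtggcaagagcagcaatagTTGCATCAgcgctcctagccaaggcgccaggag
Asns, which makes asparagine, and Vldlr, a lipoprotein receptor, differed by -0.83 and -0.98, and the stress transcription factor gene Atf3 by -0.58. Nupr1, Pycr1 and Slc7a11 also held a match and did not pass the test.

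The largest differences were far larger than those of the stress genes, and developmental regulators were found at both ends. Zic1, a transcription factor of the dorsal neural tube and somites, had WT signals of 3.26, 3.58 and 3.36 and KO signals of 12.43, 12.07 and 12.61. It lay under background on every WT array and above 12 on every KO array, at least 130-fold apart (adjusted p = 1.22e-10). Igfbp2, a secreted binding protein of insulin-like growth factors, had signals of 4.35, 3.81 and 4.35 in WT and 14.23, 12.66 and 13.36 in KO cells. It too was at background in WT cells alone, at least 269-fold lower than in KO cells (adjusted p = 8.42e-08). Rian, a noncoding RNA of the imprinted Dlk1-Meg3 cluster, was at 4.83, 4.80 and 4.75 in WT and 13.04, 12.29 and 12.62 in KO cells, a rise of at least 158-fold.

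Sim2, a bHLH-PAS transcription factor, followed with signals of 3.63, 3.88 and 3.57 in WT and 10.32, 10.64 and 10.45 in KO cells, at least 34.8-fold apart. Ackr3, a scavenging receptor for the chemokine CXCL12, and Mest, an imprinted gene, were at least 75.2-fold and 81.1-fold higher in KO cells. Ptgis, the prostacyclin synthase gene, rose by 6.33 ± 0.31 from WT signals of 5.84 to 6.73. Further large rises were Enpep, a cell-surface aminopeptidase (at least 24.5-fold), Slc7a2, a cationic amino acid transporter (at least 33.4-fold), Gas1, a hedgehog co-receptor (5.83 ± 0.46), and Meg3 (5.49 ± 0.25).

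Among the falls, Lipo3 had signals of 10.62, 10.43 and 10.40 in WT and 3.52, 3.16 and 2.90 in KO cells. Every KO array lay under background, so the fold is at least 35.2 (adjusted p = 1.22e-10). Cd34, a surface sialomucin of some stromal and blood-forming cells, was at 12.41, 12.62 and 12.87 in WT and 6.23, 4.55 and 6.33 in KO cells. It was among the brighter genes in WT cells and near background in KO cells (-6.93 ± 0.42, adjusted p = 6.71e-07). P2ry14, a receptor for UDP-glucose, was at 10.58, 10.95 and 10.58 in WT and 3.95, 3.90 and 3.61 in KO cells, at least 41.1-fold apart.

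Fabp7, a fatty acid binding protein, was at least 46.9-fold lower in KO cells, and Smpdl3a, a phosphodiesterase, at least 25.3-fold. The transporter genes Slc6a15 (neutral amino acids), Slc1a6 (glutamate) and Slc24a3 (sodium, potassium and calcium) fell too, the first at least 14.9-fold and the others with differences of -5.35 ± 0.33 and -4.95 ± 0.29. Of the patterning genes, Pax1 differed by -5.21 ± 0.24 and Tbx18 was at least 17.8-fold lower. Hoxb5os, an RNA antisense to Hoxb5, differed by -5.15 ± 0.28 and 3110039M20Rik by -4.97 ± 0.17. These genes, from Zic1 to 3110039M20Rik, stayed past the threshold when any 1 array was left out. The arsenite arrays gave each of them a difference of the same sign. Each value is that of the gene's brightest probe set, and a dimmer set showed under 50% of the difference for Rian, Sim2, Slc7a2, Gas1, Meg3 and Pax1 among them.

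**Figure D1:**
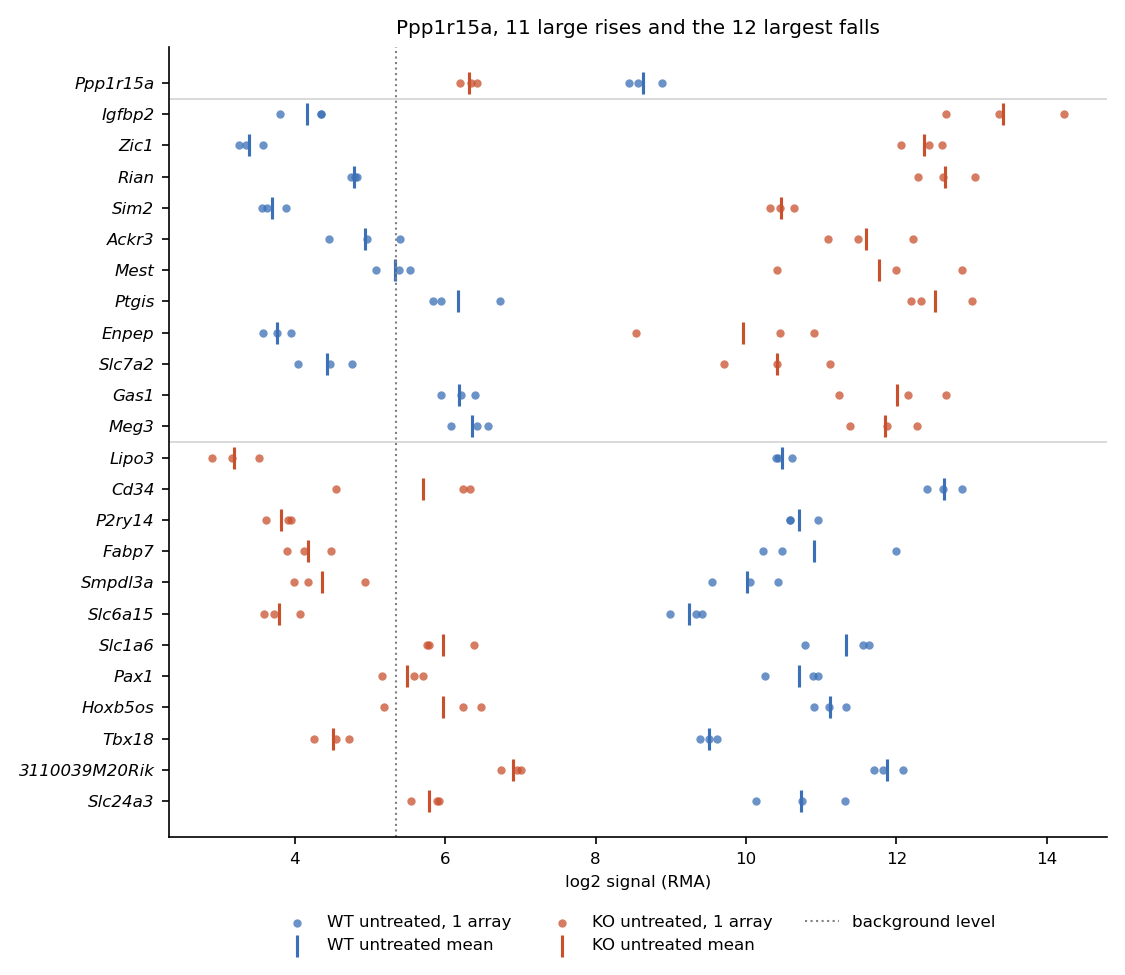
Log2 RMA signal of each untreated array (points, 3 per group) and the group mean (bars) for Ppp1r15a, 11 large rises and the 12 largest falls. WT (blue) and KO (orange) arrays are separated in every row, and the dotted line marks the background level of 5.35; Igfbp2, Zic1 and Rian lie left of it in WT cells and Lipo3, P2ry14 and Fabp7 in KO cells.

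Some genes were above the 75th percentile of all values (8.43) on every array of one genotype and under background on every array of the other. In this sense 12 genes were seen in KO cells alone: Elavl2, Enpep, Gli2, Igfbp2, Ntrk3, Pcdhb17, Rian, Sim2, Slc7a2, Smarca2, Zfp618 and Zic1. Another 10 were seen in WT cells alone: Col4a3, Fabp7, Gca, Hoxb5, Hoxd8, Lipo3, P2ry14, Slc6a15, Smpdl3a and Tbx18. Those of both sets not described above were chosen after their values were seen. Gli2, the main activating transcription factor of hedgehog signalling, had signals of 4.62, 5.12 and 4.79 in WT and 9.26, 9.31 and 9.95 in KO cells (at least 17.9-fold). Smarca2, an ATPase of the SWI/SNF chromatin remodeller, was at 4.63, 4.23 and 4.80 in WT and 9.42, 8.64 and 9.32 in KO cells (at least 13.7-fold). Col4a3, a basement membrane collagen chain, was at 8.72, 9.42 and 9.55 in WT and 4.88, 4.89 and 5.13 in KO cells (at least 14.8-fold). Fewer cells that express a gene and less RNA per cell cannot be told apart in RNA from whole cultures.

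The Hox genes, which record position along the body axis, split by cluster. Of 35 measured, 7 rose and 8 fell (42.9% called), with a median of -0.03. All 7 rises lay in the Hoxa cluster, where 7 of 10 rose and none fell (median 1.13). All 8 falls lay in the other clusters: 4 of 9 in Hoxb, 1 of 7 in Hoxc (2 with the replicate block) and 3 of 9 in Hoxd. Hoxb6 was at 10.32, 10.02 and 10.51 in WT and 5.98, 5.87 and 5.53 in KO cells (-4.49 ± 0.19, adjusted p = 5.25e-08). Hoxd8 was at 9.37, 9.14 and 9.47 in WT and under background in KO cells (at least 15.8-fold). Hoxb5 and Hoxb9 fell likewise, the first at least 11.4-fold and the second with a difference of -3.99 ± 0.29. The other falls were Hoxd9, Hoxb4 and Hoxc6, at -1.27, -0.58 and -0.56, and Hoxd4, which was under background in KO cells and at least 1.71-fold lower. Of the Hoxa rises, Hoxa10 was under background in WT cells and at least 2.36-fold higher, and the other 6 ran from 0.84 for Hoxa7 to 1.49 for Hoxa9. Hoxa9, chosen after its values were seen, was at 7.66, 7.92 and 7.43 in WT and 8.80, 9.53 and 9.15 in KO cells (1.49 ± 0.23). Hoxb2 differed by -0.48 ± 0.19 (adjusted p = 0.116, and 0.0174 with the replicate block). Leaving out 1 array gave 5 to 7 rises and 7 to 9 falls.

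**Figure D2:**
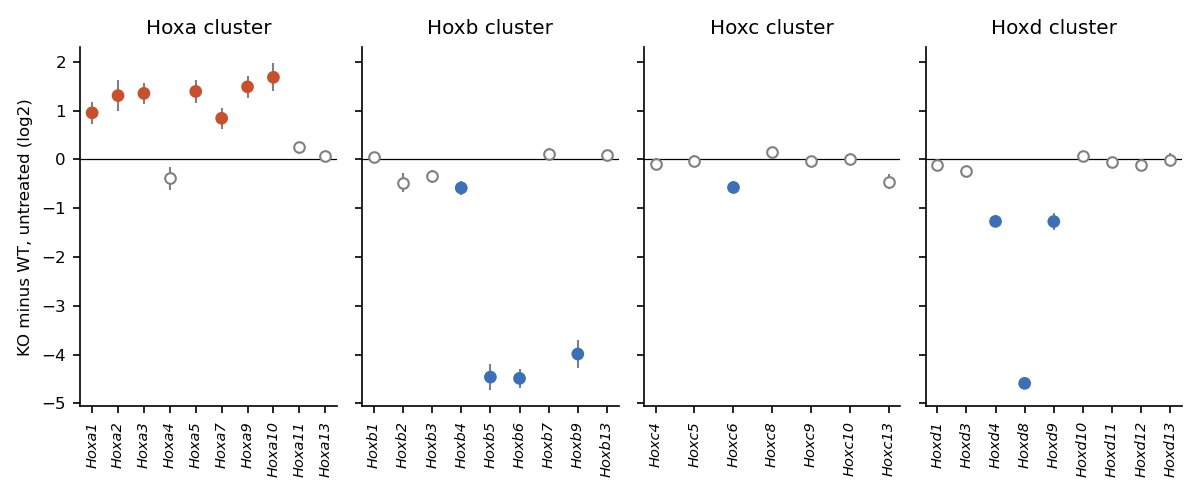
KO minus WT difference (log2) of each measured Hox gene in untreated cells, in order of gene number within the 4 clusters; bars are ± 1 SE (limma, 3 arrays per group in each mean). Filled points passed the test (orange rose, blue fell) and open points did not; the filled points of the Hoxa cluster lie above 0 and those of the other clusters below it.

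Other developmental transcription factors also differed often: 24 of 77 rose and 12 fell (46.8% called, median 0.06), and leaving out any 1 array gave 19 to 23 rises and 10 to 12 falls. Irx3, a homeobox factor of limb and neural tube patterning, had signals of 5.53, 4.91 and 4.74 in WT and 10.96, 10.09 and 9.82 in KO cells. The groups did not overlap, and the rise was at least 29.5-fold. Genes chosen after their values were seen show the spread of families. Nr2f1, an orphan nuclear receptor of neural crest and brain, rose by 4.64 ± 0.14, Sox11 by 3.66 and Tbx20 by 3.42. Pax8 and Ebf3, under background in WT cells, were at least 9.61-fold and 7.98-fold higher. Foxf1, a factor of the mesenchyme of gut and lung, fell by 4.58 ± 0.21 on the log2 scale from WT signals of 10.87, 10.56 and 10.85, and Msx2 and Six2 differed by -2.93 and -2.56. Within families the directions were mixed, as Foxc2 and Foxp2 rose while Foxf1 fell, and Tbx15 and Tbx20 rose while Tbx18 fell. Foxf2 did not pass (-0.74 ± 0.25, adjusted p = 0.0612, and 0.0385 with the replicate block).

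Imprinted genes, which are read from 1 parental copy and many of which act on fetal growth, rose in KO cells in 11 of 30 cases (36.7%) and fell in 3 (10.0%). The median was 0.25, and the counts were 11 to 12 and 2 to 3 without any 1 array. All 4 measured members of the Dlk1-Meg3 cluster on chromosome 12 rose: Rian (above), Meg3, Dlk1 and Mirg. Meg3 was at 6.57, 6.42 and 6.08 in WT and 12.28, 11.87 and 11.38 in KO cells (adjusted p = 9.91e-08). Dlk1, a Notch-like growth regulator read from the other parental copy than Meg3, was at 6.39, 6.00 and 5.73 in WT and 9.72, 9.92 and 9.17 in KO cells (3.57 ± 0.27, adjusted p = 3.73e-06). Neither gene's arrays overlapped between groups, but their other probe sets ranged from 0.25 to 7.22 for Meg3 and the other Dlk1 set differed by 0.61. By parental origin, 4 of 11 maternally expressed genes rose and 3 fell, and 7 of 19 paternally expressed ones rose and none fell. The 3 falls were Cdkn1c, Igf2r and Phlda2, each known as a brake on growth, at -2.21, -1.01 and -0.46. Igf2, the fetal growth factor that Igf2r clears, had KO signals of 10.08, 7.48 and 7.17 against 6.04, 6.63 and 6.13 in WT cells. The groups did not overlap, yet 1 KO array stood apart, and the gene did not pass (1.98 ± 0.85, adjusted p = 0.14, and 0.0427 with the replicate block).

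Genes of the extracellular matrix changed in both directions: 18 of 75 rose and 17 fell (46.7% called, median 0.04). Among fibrillar collagens 5 of 8 rose and 1 fell, whereas among crosslinking enzymes 1 of 11 rose and 5 fell. Col1a2, a chain of collagen I, was at 10.37, 9.96 and 10.67 in WT and 14.83, 14.44 and 14.70 in KO cells. It rose 4.32 ± 0.22 (adjusted p = 1.84e-07), and its other probe sets differed by 3.2 to 4.98. Col1a1, the other chain of collagen I, and Col3a1 were measured and did not pass the test. Npnt, a basement membrane ligand of an integrin, rose by 5.09 ± 0.35 from WT signals of 6.51 to 7.52. Tgm2, a crosslinking transglutaminase, was at 11.50, 11.45 and 11.10 in WT and 7.80, 7.61 and 6.05 in KO cells (-4.19 ± 0.51, adjusted p = 0.000157). Postn, a glycoprotein of periosteum and healing wounds, varied widely within groups, with 11.34, 9.41 and 8.96 in WT and 8.08, 5.51 and 6.10 in KO cells. The lowest WT array was less than 1 log2 unit above the highest KO array, and the adjusted p of 0.0282 reached 0.116 when WT array 1 or 2 or KO array 2 or 3 was left out. Prelp did not pass (-1.97 ± 0.75, adjusted p = 0.0924, and 0.00141 with the replicate block). Chosen after their values were seen, the collagen IV chains Col4a1 and Col4a2 differed by -1.85 and -1.84 and the collagen crosslinker Loxl2 by -3.24.

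Of 31 matrix proteases and their inhibitors 6 rose and 2 fell (25.8% called, against 22.0% of all autosomal genes). Mmp2, a gelatinase, was at 10.00, 9.36 and 10.06 in WT and 12.26, 11.71 and 12.28 in KO cells (2.28 ± 0.28, adjusted p = 0.00015). Plau, a plasminogen activator, rose by 2.11 ± 0.37, and Timp3, an inhibitor of metalloproteinases, fell by 1.35 ± 0.20 on the log2 scale. Serpinf1, a secreted serpin, rose by 3.04 ± 0.79 (adjusted p = 0.0177, up to 0.0635 without WT array 2 or 3 or KO array 1). Mmp13 was at background in both groups and did not pass (adjusted p = 0.052, and 0.00416 with the replicate block). Rises in this list numbered 3 without WT array 3 or KO array 1, and 1 gene fell without WT array 2 or KO array 1 or 2.

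Of 26 measured contractile genes of smooth muscle and myofibroblasts, 10 fell in KO cells (38.5%) and 2 rose (7.7%), with a median of -0.42, and 7 to 10 fell without any 1 array (none rose without WT array 2, and 1 without WT array 1 or 3 or KO array 1 or 3). Cnn1, a calponin that binds actin, was at 11.64, 11.33 and 11.19 in WT and 7.84, 6.46 and 6.96 in KO cells (-4.30 ± 0.46, adjusted p = 5.96e-05). Actg2, the enteric smooth muscle actin, was at 12.60, 12.32 and 12.00 in WT and 9.37, 8.85 and 7.57 in KO cells (-3.71 ± 0.39, adjusted p = 4.87e-05). For both genes the nearest arrays of the groups were more than 2 log2 units apart. Csrp1, an actin-associated LIM protein, differed by -2.21 ± 0.19 and its second probe set by -2.22. Myl9, a regulatory light chain of myosin, fell by 1.88 ± 0.49 (adjusted p = 0.0181, up to 0.0636 without WT array 1 or KO array 2 or 3). Lmod1, Mrtfa, Actc1, Tpm2, Synpo2 and Cnn2 also fell, with differences from -1.59 to -0.44, while Smtn and Csrp2 rose by 0.40 and 0.67. Acta2 and Tagln, commonly used to mark myofibroblasts, differed by -0.12 and -0.21 and did not pass, nor did Acta1 (-0.90 ± 0.36, adjusted p = 0.107, and 0.00647 with the replicate block). Mrtfa encodes a coactivator of serum response factor, the factor that binds the CArG box of many of these genes, and Srf itself differed by -0.73 without passing.

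The CArG box was looked for in the same 250 bases. It was found in 5 of the 20 contractile genes with a promoter sequence and in 1.42% of 13830 autosomal genes. The 3 that fell and held one are shown with the box in capitals. Their windows are chr2:156775278-156775337 (plus strand) for Myl9, chr2:114052888-114052947 (minus strand) for Actc1 and chr10:79988519-79988578 (plus strand) for Cnn2, and the boxes begin 161, 47 and 56 bases before the start.
Myl9: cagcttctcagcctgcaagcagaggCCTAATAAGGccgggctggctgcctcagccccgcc
Actc1: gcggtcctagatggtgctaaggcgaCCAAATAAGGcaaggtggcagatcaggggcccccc
Cnn2: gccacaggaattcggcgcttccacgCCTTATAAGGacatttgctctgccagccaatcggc
The other holders were Acta1 and Srf. Cnn1 and Actg2, the largest falls of the list, were not among the holders in this window.

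Among 50 integrins, cadherins and other adhesion genes 10 rose and 4 fell (28.0% called), with 6 rises without WT array 2 or 3 or KO array 3. Cdh10, a cadherin, was at least 7.01-fold higher in KO cells by its brightest probe set, while its other sets differed by 0.10 to 0.43. Alcam, an adhesion molecule of the immunoglobulin family, was at 7.39, 7.69 and 7.53 in WT and 9.87, 8.90 and 9.93 in KO cells (2.03 ± 0.35, adjusted p = 0.0016). Its other probe sets differed by 0.05 to 2.09. Itgbl1, an integrin-like secreted protein, was at least 7.07-fold lower. Cadm2 passed the test with both means under background, so no difference is given, and its adjusted p of 0.0309 reached 0.123 when any array but KO array 2 was left out. Cdh1, the epithelial cadherin, lay under background in both groups and did not pass (adjusted p = 0.0967).

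Of 46 genes that guide axons and migrating cells 11 rose and 9 fell (43.5% called, median 0.08). Sema3e, a repulsive semaphorin, was at 8.33, 8.61 and 8.62 in WT and 5.57, 5.88 and 6.53 in KO cells (-2.53 ± 0.20, adjusted p = 5.7e-06), and its other probe sets differed by -2.90 to -1.47. Sema3a, of the same class, fell by 1.93 ± 0.33. Epha4, an ephrin receptor, went the other way, from 8.0, 7.28 and 7.62 in WT to 9.80, 9.60 and 10.04 in KO cells (2.18 ± 0.23, adjusted p = 5.67e-05). Robo1, a Slit receptor, rose by 1.77 ± 0.40 by 1 probe set and differed by 0.04 by the other. Sema7a did not pass (0.95 ± 0.32, adjusted p = 0.06, and 0.000442 with the replicate block).

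In the Wnt pathway 11 of 53 genes rose and 10 fell (39.6% called, median 0.09). Of its 15 receptors 6 rose and 1 fell, and of 8 target genes none rose (1 with the replicate block) and 3 fell. The ligands moved both ways. Wnt10a was at 6.60, 6.93 and 7.10 in WT and 11.38, 11.11 and 11.05 in KO cells (4.30 ± 0.21, adjusted p = 1.33e-07), and Wnt5a at 10.64, 10.47 and 10.73 in WT and 8.24, 7.66 and 8.39 in KO cells (-2.52 ± 0.23, adjusted p = 2.01e-05). Neither gene's arrays overlapped between genotypes. The other Wnt5a probe sets differed by -2.77 to -0.09. Among secreted antagonists Sfrp1 rose by 2.60 ± 0.47, while Dkk2 was at least 6.44-fold lower (adjusted p = 0.0158, up to 0.0653 without WT array 2 or KO array 1 or 3). Rspo2, an amplifier of Wnt signals, did not pass (1.79 ± 0.69, adjusted p = 0.0994, and 0.000218 with the replicate block). Without WT array 2 the counts were 6 rises and 6 falls, without KO array 3 there were 6 rises, and without KO array 1 there were 7.

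Of 48 genes of the TGF-beta and BMP pathway 9 rose and 4 fell (27.1% called), the latter 8 with the replicate block and 2 without WT array 1. Tgfb3, a ligand, was at 7.81, 7.19 and 8.10 in WT and 11.23, 9.72 and 10.81 in KO cells (2.89 ± 0.55, adjusted p = 0.00314). The activin antagonist Fst rose by 2.00 ± 0.32 and its relative Fstl3 fell by 1.48 ± 0.12, while the BMP receptor gene Bmpr1b was at least 2.87-fold lower.

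Among 61 growth factor genes 7 rose and 6 fell (13 and 11 with the replicate block). Together 21.3% were called, near the 22.0% of all autosomal genes. The changes among the insulin-like growth factor binding proteins, which hold these factors in the medium, were the largest: beside Igfbp2, Igfbp4 rose by 5.09 ± 0.35 from WT signals of 6.62, 6.12 and 6.97 to 12.29, 11.51 and 11.18. Its other probe sets differed by 0.50 to 5.16. Kitl, the ligand of the receptor KIT, was at 12.64, 12.38 and 12.40 in WT and 8.29, 9.14 and 8.83 in KO cells (-3.72 ± 0.27, adjusted p = 2.99e-06), with its other sets at -3.51 to -2.67. Ptn, a heparin-binding growth factor, fell by 3.58 ± 0.68 on the log2 scale (adjusted p = 0.00284).

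Of 43 genes of cytokines, chemokines and NF-kB 8 rose and 11 fell (44.2% called, median -0.13). The NF-kB subunits, their inhibitors and close relatives fell in 5 of 7 cases and rose in the other 2. Ccl2, which attracts monocytes, was at 10.56, 9.94 and 9.43 in WT and 8.22, 6.53 and 6.56 in KO cells (-2.88 ± 0.47, adjusted p = 0.00118). Tslp, a cytokine of barrier tissues, differed by -2.66 ± 0.25. Tlr4, the receptor for bacterial endotoxin, differed by -2.39 ± 0.22, and its other probe sets by -2.14 to -0.05. In the opposite direction, and chosen after their values were seen, Il6 and Il33 were under background in WT cells and at least 1.56-fold and 1.96-fold higher in KO cells. Il1rl1, the receptor of IL-33, had WT signals of 8.68, 9.68 and 7.29 and KO signals of 10.27, 11.53 and 10.52, and did not pass (2.22 ± 0.78, adjusted p = 0.0693, and 0.000465 with the replicate block).

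Interferon-stimulated genes were near the background share, with 6 of 55 risen and 5 fallen, and their counts depended on the fit. With the replicate block 13 rose and 9 fell. Without KO array 2 13 rose, and without WT array 2 or KO array 1 or 3 only 3 did. Without WT array 1 or 3 or KO array 2 2 genes fell, and without KO array 3 3 did. The class I antigen presentation genes H2-D1 and H2-K1 differed by -1.85 ± 0.22 and -1.72 ± 0.22 (adjusted p = 0.000114 and 0.000245). They are close copies of each other and of further genes, so their probe sets may share signal. The other sets differed by -1.86 to -0.11 for H2-D1 and by -0.44 to -0.15 for H2-K1. Cxcl10 fell by 1.64 ± 0.45 (adjusted p = 0.023, up to 0.0788 without any 1 array but KO array 1), and Gbp2 was at least 1.9-fold higher (adjusted p = 0.014, up to 0.0567 without WT array 2 or KO array 1 or 3). Ifit3 did not pass (1.79 ± 0.61, adjusted p = 0.0624, and 0.00243 with the replicate block). Of 14 complement and acute-phase genes 2 rose, Cd55 (at least 4.98-fold) and Cp, the copper carrier ceruloplasmin (3.05 ± 0.62). The complement inhibitor gene Serping1 was at least 2.93-fold lower (adjusted p = 0.0193, up to 0.0801 without WT array 1 or KO array 1, when no gene of the list fell). With the replicate block, or without KO array 2, 4 rose. Of this list 21.4% were called, near the 22.0% of all autosomal genes.

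Few proliferation genes passed the test without the replicate block, while 2 neighbouring brakes on the cell cycle fell strongly. With that block 4 of 34 genes of the cell cycle and DNA replication rose and 5 fell, where 31.9% of all autosomal genes were called. Without it 1 rose and 2 fell (8.8% called, against 22.0% of all autosomal genes). Single arrays moved these small counts between 0 and 2 rises (2 without KO array 1, none without WT array 1 or 3 or KO array 2) and between 1 and 4 falls (4 without KO array 2, 1 without WT array 1 or KO array 3). E2f1 fell by 0.66 ± 0.14. Ccnd3 fell by 0.67 ± 0.18 (adjusted p = 0.0184, up to 0.0572 without WT array 1 or 3 or KO array 2 or 3), and Cdk6 rose by 0.65 ± 0.19 (adjusted p = 0.0283, up to 0.112 without WT array 1 or 3 or KO array 2 or 3). None of the 13 genes of mitosis passed the test, while 1 rose and 1 fell with the replicate block. Of 26 p53 targets and senescence genes 4 rose and 5 fell (8 with the replicate block, 2 without WT array 1 or KO array 1, 3 without WT array 2, and 2 rises without WT array 2 or KO array 3). Together 34.6% were called. Cdkn2b and Cdkn2a lie side by side and encode inhibitors of cyclin-dependent kinases, and Cdkn2a also encodes the p53 activator ARF. Cdkn2b was at 11.28, 10.69 and 11.41 in WT and 8.43, 6.26 and 7.86 in KO cells (-3.61 ± 0.49, adjusted p = 0.000334). Cdkn2a was at 13.84, 13.65 and 13.88 in WT and 11.43, 9.73 and 11.07 in KO cells (-3.05 ± 0.47, adjusted p = 0.000746). Both were lower on every KO array by at least 2 log2 units, and Cdkn2a remained among the brighter genes there. They lie on chromosome 4, where 26.1% of all genes fell. Cdkn1b, another inhibitor, rose by 1.29 ± 0.20, and Gadd45a by 1.37 ± 0.33 (adjusted p = 0.0123, up to 0.0557 without WT array 1 or 2 or KO array 3). Large T antigen, which both genotypes carry, binds p53 and the retinoblastoma protein. Fas, a death receptor and p53 target, did not pass (-0.72 ± 0.50, adjusted p = 0.385, and 0.0239 with the replicate block).

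Of 29 heat shock genes 9 fell in untreated KO cells (31.0%) and 2 rose (6.9%), with a median of -0.16 and 7 to 10 falls without any 1 array (1 rise without WT array 1 or KO array 2 or 3). Hspa1a and Hspa1b encode the inducible chaperone HSP70. Hspa1b was at 12.97, 12.66 and 13.06 in WT and 10.44, 10.66 and 10.69 in KO cells (-2.30 ± 0.18, adjusted p = 5.58e-06), and Hspa1a at 10.18, 9.52 and 10.50 in WT and 6.69, 6.71 and 7.06 in KO cells (-3.25 ± 0.37, adjusted p = 9.37e-05). The genes are near-identical copies and may share signal, and the nearest arrays of the groups were more than 1 log2 unit apart for both. Hspb8, a small heat shock protein, fell by 2.48 ± 0.34, with its other sets at -1.14 and -1.02. Cryab, another small heat shock protein, had a mean of 11.46 (SD 0.53, n = 3) in WT cells, 12.04 at most, and signals of 13.66, 13.49 and 13.71 in KO cells (2.16 ± 0.29, adjusted p = 0.000294). The transcription factor genes Hsf1 and Hsf2 fell by 0.48 and 0.88. Hspa4l did not pass (-1.62 ± 0.57, adjusted p = 0.0675, and 0.00425 with the replicate block).

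Among 37 NRF2 targets and antioxidant genes 10 fell (27.0%) and 4 rose (10.8%), with a median of -0.09 and 8 to 9 falls without any 1 array. Of the falls 2 lie on chromosome 4, where 26.1% of all genes fell, and 1 each on others. Nqo1, a quinone reductase, was at 8.83, 8.16 and 8.72 in WT and 6.39, 6.96 and 6.92 in KO cells (-1.82 ± 0.26, adjusted p = 0.00046). Bach2, a repressor that shares NRF2's binding sites, was at least 14.3-fold lower, and Maff, a small Maf partner of both, fell by 1.62 ± 0.15. The other Bach2 probe sets differed by -3.52 to -0.08. Gpx7, a peroxidase of the endoplasmic reticulum, fell by 2.86 ± 0.51. Of the 12 glutathione genes on this list 4 fell and none rose, whereas of 7 thioredoxin and peroxiredoxin genes 2 rose and none fell (3 with the replicate block). Srxn1 did not pass (-0.81 ± 0.39, adjusted p = 0.191, and 0.0227 with the replicate block). Of 45 glutathione transferase, aldehyde dehydrogenase, retinoid and arsenic genes 3 rose and 7 fell (22.2% called, near the 22.0% of all autosomal genes). There were 7 rises under the replicate block or without KO array 2, 1 rise without WT array 1, and 4 falls without KO array 3. Cyp26b1, which degrades retinoic acid, was at 6.20, 5.69 and 6.31 in WT and 10.74, 11.27 and 11.24 in KO cells, well apart on all arrays (5.02 ± 0.21, adjusted p = 4.82e-08). Aldh1l2 fell by 1.80 ± 0.40.

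Immediate early genes, which respond within minutes to growth factors or stress, fell in 5 of 33 cases (8 with the replicate block, 3 without WT array 1) and rose in 2, with a median of -0.21. Together 21.2% were called, near the 22.0% of all autosomal genes. Dusp1, a phosphatase that switches off stress-activated MAP kinases, was at 12.51, 12.26 and 12.33 in WT and 10.86, 11.28 and 11.16 in KO cells (-1.27 ± 0.14, adjusted p = 5.96e-05). Dusp4, of the same family, differed by -2.28 ± 0.27, and Csrnp1 by -1.45 ± 0.30 by 1 probe set and 0.04 by the other. Egr3 was at least 8.88-fold higher in KO cells by its brightest probe set, while its other set differed by 0.10. None of the 7 AP-1 genes on the list passed the test, and 1 fell with the replicate block. Klf2 did not pass either (-1.28 ± 0.43, adjusted p = 0.0598).

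Genes of glycolysis and hypoxia fell in 10 of 30 cases (33.3%) and rose in 4 (13.3%), with a median of -0.15 and 7 to 10 falls without any 1 array. Of the falls 2 lie on chromosome 10 and 2 on chromosome 19, where 28.8% and 17.7% of all genes fell, and 1 each on others. Relative to the median of each gene's own chromosome the list median was -0.22. Adm, a hypoxia-induced peptide hormone, was at 10.60, 10.11 and 10.03 in WT and 9.0, 8.18 and 8.10 in KO cells (-1.82 ± 0.31, adjusted p = 0.00142), and Ndrg1, also hypoxia-induced, fell by 1.52 ± 0.33. The hexokinases parted: Hk2 was at 8.57, 8.97 and 8.88 in WT and 10.16, 10.57 and 10.49 in KO cells (1.60 ± 0.23, adjusted p = 0.000418), and Hk1, chosen after its value was seen, fell by 0.96. Eno2, an enolase, rose by 1.69 ± 0.40. Rises numbered 2 without WT array 1 or 2. Epas1, near background, did not pass (adjusted p = 0.104, and 0.00815 with the replicate block).

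Of 31 cholesterol and fatty acid genes 4 rose and 1 fell (16.1% called), and 11 and 3 with the replicate block. Abca1, the cholesterol exporter, was at least 3.8-fold higher by its brightest probe set, while its other sets differed by -0.07 to -0.01. Acadl, a mitochondrial enzyme that oxidises long fatty acids, rose by 0.83 ± 0.10, its second set differing by -0.12. Fads1 and Acadm rose with adjusted p-values of 0.0433 and 0.032 that reached 0.152 and 0.117 when WT array 1 or 2 or KO array 1 or 3 was left out. Without any of these 4 arrays 2 genes rose. Srebf1 was the 1 fall, and none fell once any 1 array was left out. Scd1 did not pass (-0.82 ± 0.39, adjusted p = 0.187, and 5.09e-05 with the replicate block). Among 20 metallothionein, zinc and iron genes 2 rose and 4 fell, where 22.0% of all autosomal genes were called. The zinc importer gene Slc39a10 was at 9.52, 9.78 and 9.56 in WT and 10.91, 11.09 and 10.77 in KO cells (1.31 ± 0.11, adjusted p = 6.98e-06). Slc39a8, of the same family, rose too (adjusted p = 0.0153, up to 0.066 without WT array 2 or KO array 1 or 3), and without each of these arrays 1 gene of this list rose. Slc11a2, an iron transporter, fell by 0.73 ± 0.17.

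The translation machinery changed in small steps. Of 26 cytosolic ribosomal protein genes 3 rose and none fell (11.5% called, against 22.0% of all autosomal genes). The share that rose was near the 11.2% of all autosomal genes. The rises were Rps24 (0.54 ± 0.09), Rpl7 (0.50 ± 0.07) and Rps3 (0.32 ± 0.10, adjusted p = 0.0415, up to 0.152 without any 1 array). Of 33 translation factors 8 rose and 1 fell (27.3% called), with 5 rises without WT array 1 or KO array 2 or 3. Of the 8 rises 3 lie on chromosome 1 and 2 on chromosome 7, where 25.6% and 14.1% of all genes rose, and 1 each on others. Eef2k, the kinase that inhibits elongation factor 2, was at 9.62, 9.28 and 9.47 in WT and 10.57, 10.31 and 10.58 in KO cells (1.03 ± 0.13, adjusted p = 0.000167), and Eif3f rose by 0.67 ± 0.10. The other Eef2k probe sets differed by 0.03 to 0.77. Eif4e3 was the 1 fall (adjusted p = 0.0153, and 0.0559 without KO array 1), joined by 1 more with the replicate block. Of 35 aminoacyl-tRNA synthetases 6 rose and 2 fell (4 with the replicate block, 1 without WT array 2, WT array 3 or KO array 1). Together 22.9% were called, near the 22.0% of all autosomal genes. The mitochondrial members Iars2 and Wars2 rose by 1.16 ± 0.20 and 0.93 ± 0.11. Of the 6 rises 5 lie on chromosome 1, where 6 members were measured and where 25.6% of all genes rose. Yars fell by 0.76 ± 0.14.

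Of 24 chaperones and other genes of the endoplasmic reticulum 4 rose and 2 fell, a share near the 22.0% called among all autosomal genes. The falls numbered 5 with the replicate block and 1 without WT array 1 or 2 or KO array 1 or 3. The rises numbered 2 without WT array 3 or KO array 1. The rises were the disulfide isomerase genes Pdia4 (1.16 ± 0.12, adjusted p = 3.83e-05), Pdia6 (0.59 ± 0.09) and Pdia3 (0.42), and Manf (0.31). Pdia4 was at 10.29, 10.38 and 10.47 in WT and 11.66, 11.52 and 11.44 in KO cells, while a second Pdia6 set differed by -0.21. Creld2, also of the reticulum, fell by 0.59 ± 0.11. Ern1, the sensor IRE1, fell by 0.51 ± 0.14 (adjusted p = 0.0212, up to 0.087 without WT array 1 or 2 or KO array 1 or 3). Xbp1, whose RNA that sensor splices, did not pass (0.47 ± 0.17, adjusted p = 0.0843, and 0.00285 with the replicate block).

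Of 31 genes of chromatin and DNA methylation 5 rose and 6 fell (3 rises without WT array 2 or 3, 3 falls without KO array 1). Together 35.5% were called. Hdac2, a histone deacetylase, was at 12.71, 12.69 and 12.55 in WT and 11.59, 11.73 and 11.59 in KO cells (-1.01 ± 0.09, adjusted p = 2.19e-05), although another of its sets differed by 0.10. Polycomb genes, which hold developmental genes silent, moved both ways, with Rnf2 at 1.08 ± 0.14 and Cbx7 at -1.53 ± 0.21 by its brightest set, its other sets lying at -0.08 to 0.02. The other Rnf2 sets lay at -0.05 to 1.11. Of 22 YAP and TEAD genes 2 rose and 2 fell (4 with the replicate block, 1 rise without WT array 3 or KO array 1). Together 18.2% were called, against 22.0% of all autosomal genes. Tead2 was at 9.27, 8.97 and 9.53 in WT and 10.44, 10.83 and 10.88 in KO cells (1.46 ± 0.19), and the targets Amotl2 and Ccn2 differed by -0.75 ± 0.18 and -0.52 ± 0.11. The other rise was Nuak2 (adjusted p = 0.0147, up to 0.0546 without WT array 3 or KO array 1).

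**Figure D3:**
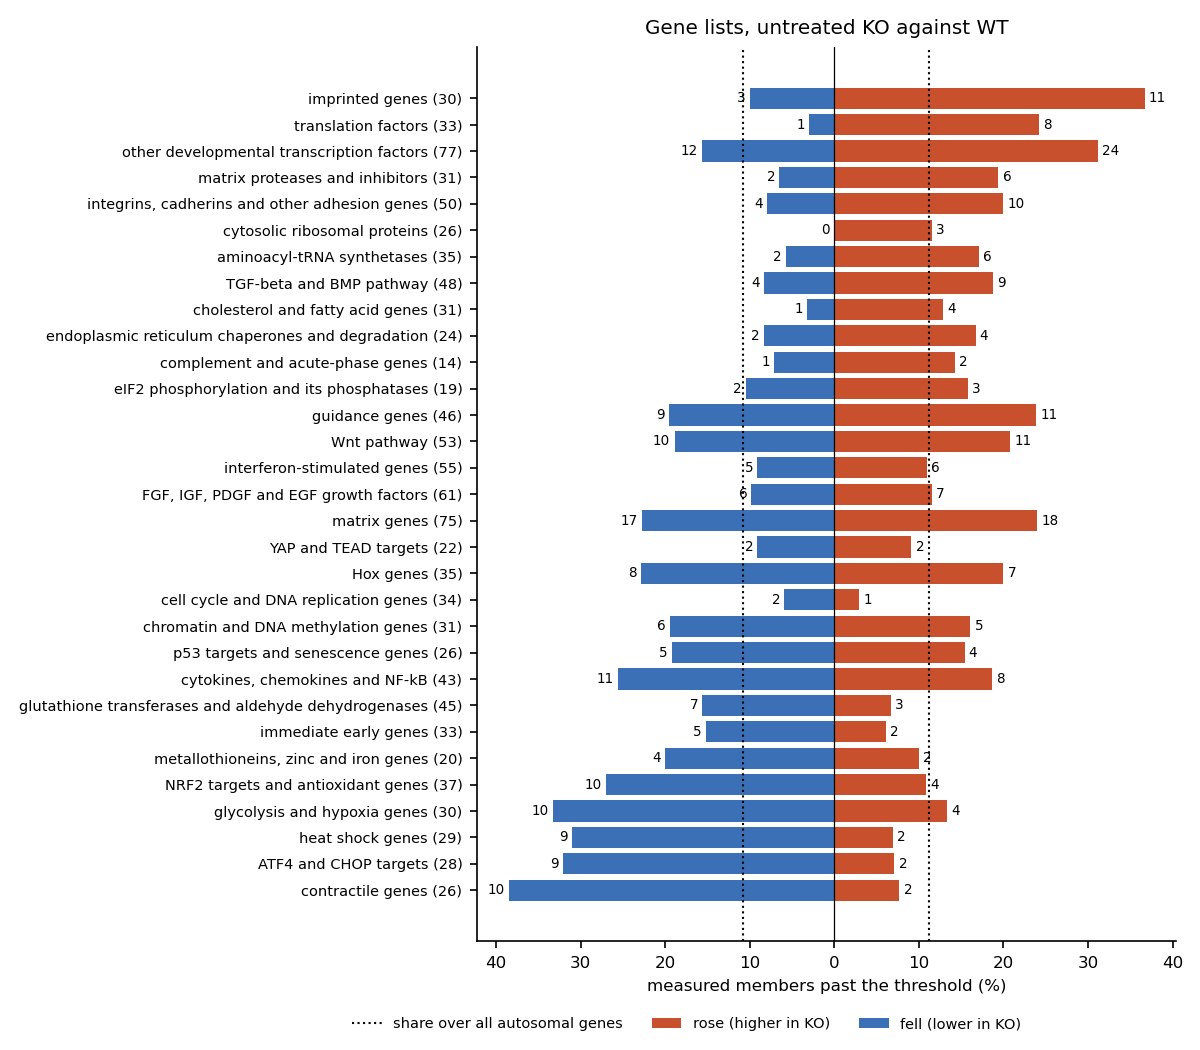
Share of the measured members of each of 31 gene lists (number measured in brackets) that rose (right, orange) or fell (left, blue) in untreated KO cells; the figures at the bar ends are gene counts and the dotted lines the shares over all 17600 autosomal genes, 11.2% and 10.8%. Imprinted genes reach furthest to the right with 11 rises, and contractile genes furthest to the left with 10 falls.

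Markers of other cell types were checked in the same arrays. Of 16 fibroblast markers 1 rose and 1 fell, Fap lay under background in both groups, and the summed linear signal was 72530 to 86640 in WT and 100600 to 119500 in KO cells. The rise was Col1a2, whose mean was 10.33 in WT and 14.66 in KO cells and which is part of these sums. The fall was Thy1, a surface marker of many fibroblasts, which was at 7.41, 7.19 and 7.37 in WT and 5.17, 5.12 and 5.14 in KO cells. Ptprc and 4 more of 12 leukocyte markers, Pecam1, Cdh5 and 3 more of 10 endothelial markers, Myog and 7 more of 12 skeletal muscle markers, and Pou5f1, Nanog and 4 more of 10 pluripotent and germ cell markers lay under background in both groups. Their sums ran from 603 to 687 in WT and 592 to 629 in KO cells for leukocytes (Cd68 fell), from 667 to 705 and 505 to 589 for endothelium (Kdr fell), from 448 to 514 and 463 to 505 for skeletal muscle, and from 507 to 565 and 530 to 596 for pluripotent cells. Epithelial markers summed to 1002 to 1112 and 1277 to 2683, with Krt19 risen and Cdh1, Krt18 and 4 more under background in both, where Krt18 passed the test between background signals (adjusted p = 0.0105), and neural crest and Schwann markers to 473 to 495 and 427 to 490, with Tfap2b under background in both. The summed cartilage markers ran from 1061 to 1444 in WT and from 3206 to 6189 in KO cells, with Col2a1, Sox9 and Sox5 risen, Hapln1 fallen, and Matn1 and Matn3 under background in both. Bone markers summed to 3363 to 6836 in WT and 24040 to 26150 in KO cells, with Spp1 risen by 2.67 and 2 of 7 markers fallen, among them Runx2, while Alpl, Ibsp and Dmp1 were under background in both. Mesothelial markers summed to 467 to 579 and 736 to 2200, with Krt19 risen and Wt1, Lrrn4 and Gpm6a under background in both, and neural markers to 2923 to 3294 and 1842 to 2643, with Nes fallen, Tubb3 and Stmn2 risen and Sox2 and 5 more under background in both. Adipocyte markers summed to 736 to 1372 and 347 to 591, with Lpl fallen and Adipoq, Cidec and Lep under background in both, and smooth muscle and pericyte markers to 27910 to 34030 and 24550 to 30460, with Cnn1 and Lmod1 fallen, Notch3 risen and Rgs5 under background in both. The part of these cell types in the differences above was not tested.

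The same genotypes were compared after arsenite on 6 arrays that share none with the untreated ones, although the cells come from the same replicate experiments. Both contrasts also come from 1 fit and share its estimate of each gene's spread, so their calls are not independent. There 2063 autosomal genes rose in KO cells (11.7%) and 1974 fell (11.2%). Of the 3875 genes called in untreated cells 3792 had the same sign under arsenite, and 1503 rises and 1430 falls were called again in the same direction. The opposite direction was called for 3. Across the 17600 genes the differences correlated at Pearson's r = 0.93 and Spearman's rho = 0.78, as a description, since genes are not independent. Among the 1185 genes called with at least a 2-fold change the median ratio of the arsenite to the untreated difference was 0.92.

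The difference between the 2 contrasts passed the test for 7 autosomal genes (0.0398%), namely Ppp1r15a, Hspa1b, Maff, Dusp1, Dusp2, Slc2a1 and C130071C03Rik, the last 3 outside the rule for named genes. Hspa1b was at 14.56, 14.63 and 14.10 in WT and 14.50, 14.54 and 13.98 in KO cells after arsenite, so its untreated difference of -2.30 became -0.09. Maff (-1.62 untreated, 0.02 after arsenite), Slc2a1, the main glucose transporter (-1.05 and 0.06), and Dusp1 (-1.27 and 0.28) likewise differed between genotypes in untreated cells and reached like levels after arsenite. Dusp2 rose by 1.06 in untreated and 3.92 in treated KO cells. The count was 12 with the replicate block and 1 to 60 when 1 of the 12 arrays was left out, namely 60 without KO arsenite array 3, 5 without KO untreated array 2, 4 without WT arsenite array 3, and 1 or 2 without each of the other 9.

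**Figure D4:**
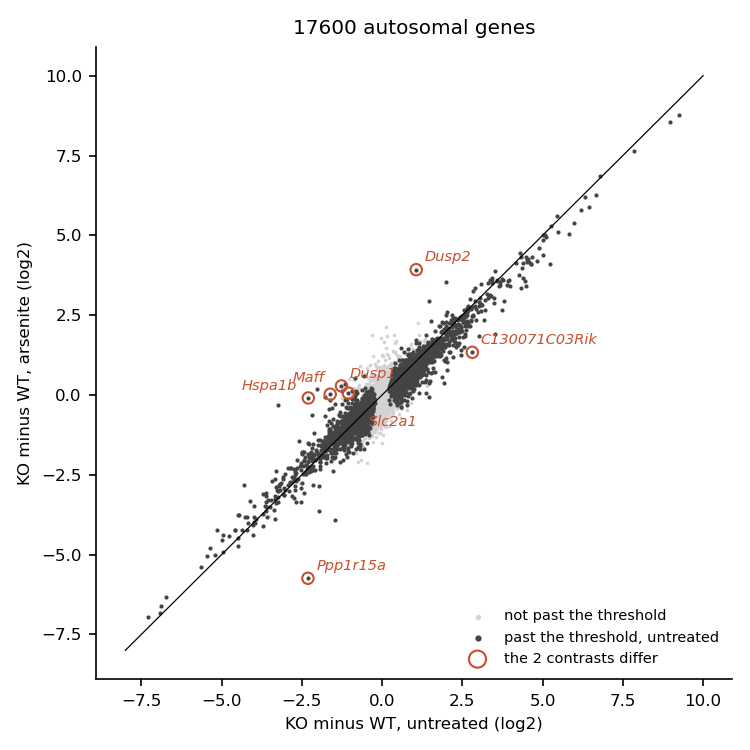
KO minus WT difference (log2) of 17600 autosomal genes after arsenite (vertical) against untreated (horizontal); black points were called in untreated cells, grey points were not, and the line marks equal differences. Most genes called in untreated cells lie near the line, and the 7 circled genes, for which the contrasts differed, lie off it.

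Some autosomes had a median away from that of all genes. Among genes above background in at least 1 group, the median difference was 0.47 on chromosome 14, 0.27 on chromosome 1, -0.31 on chromosome 10 and -0.24 on chromosome 4. With dim genes included the medians were 0.16, 0.11, -0.18 and -0.15, in the same order. Of all genes on chromosome 14, 216 of 649 rose (33.3%) and 25 fell (3.85%), and on chromosome 1, 278 of 1086 rose (25.6%) and 44 fell (4.05%). On chromosome 10, 29 of 854 rose (3.40%) and 246 fell (28.8%), and on chromosome 4, 47 of 1112 rose (4.23%) and 290 fell (26.1%). Over the 3 replicate experiments the median of chromosome 14 was 0.47, 0.46 and 0.44, that of chromosome 1 0.27, 0.27 and 0.27, that of chromosome 10 -0.32, -0.27 and -0.37, and that of chromosome 4 -0.24, -0.26 and -0.26. These medians had 1 sign in each experiment, in each of the 3 arsenite experiments, and in each of 3 equal stretches by gene order. The same was true of 9 other autosomes, 13 of 19 in all, so a constant sign does not set these 4 apart. Their medians were the furthest from 0. Along chromosome 14 the stretches lay at 0.35, 0.50 and 0.53, and along chromosome 10 at -0.30, -0.30 and -0.32. Running medians over 41 neighbouring genes stayed above 0 along all of chromosomes 1 and 14 and below 0 along all of chromosomes 4, 10 and 19. Chromosome 19 differed by experiment, at -0.12, -0.06 and -0.29, and the third experiment was also the lowest after arsenite. Whether the cells differ in copies of these chromosomes was not tested.

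When each gene's difference was taken relative to the median of its own chromosome, the contractile median became -0.38, that of the ATF4 and CHOP list -0.31, that of the imprinted genes 0.18 and that of the heat shock genes -0.20. List medians moved by up to 0.12, the most for translation factors (from -0.04 to 0.08) and cholesterol and fatty acid genes (from 0.16 to 0.27). The sign of the median turned for 4 of 31 lists: translation factors, matrix proteases and inhibitors (from -0.01 to 0.09), adhesion genes (from 0.03 to -0.01) and growth factors (from 0.02 to -0.01).

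**Figure D5:**
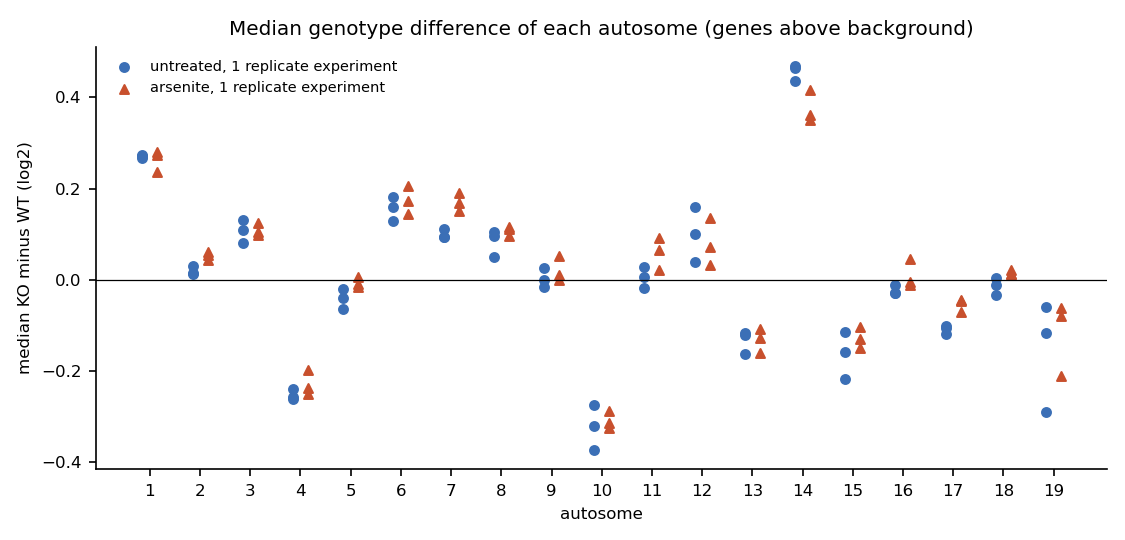
Median KO minus WT difference (log2) of the genes above background on each autosome, 1 point per replicate experiment, untreated (blue circles) and after arsenite (orange triangles). Chromosomes 1 and 14 lie above 0 and chromosomes 4 and 10 below it in all 6 comparisons; the 3 points of chromosome 19 spread the most.

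Around Ppp1r15a on chromosome 7, the 20 measured genes on either side included 3 rises and 3 falls (6 of 40, against 22.0% of all autosomal genes), and 10 calls with the replicate block. The 40 genes were chosen by place, and the 6 named here are those that passed the test. Bcat2, the mitochondrial branched-chain aminotransferase gene and the fourth measured gene after Ppp1r15a, rose by 2.46 ± 0.18 (adjusted p = 2.73e-06). Nucb1, the gene next before it, differed by -1.78 ± 0.20 (adjusted p = 8.16e-05). Tead2, at the far end, rose by 1.46, and Trpm4 by 0.71. A030001D20Rik was under background in KO cells and at least 1.31-fold lower, and Sult2b1 passed the test with both means under background.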

How the data were processed

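RNA of 12 cultures was measured on Affymetrix Mouse430_2 arrays, 3 for each of 4 groups. The log2 values were made by the authors with RMA, per the submitters' processing notes, whose version is not stated. The p-values deposited by the authors for KO against WT come from a test that neither labels nor headers name, and serve only as an alternative. A shorter deposited table agrees in values, but 10 of its 12 columns sit under another sample's name, so groups were taken from the array codes of the full table.

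Of 45101 probe sets, 38130 had 1 gene symbol, and 35046 of these matched RefSeq by gene number, which updated 1202 symbols. Each gene is represented by its probe set with the highest mean over all arrays, which gave 20753 genes, 17600 of them autosomal. Differences were tested with limma 3.58.1 (R 4.3.3) on all 12 arrays in 4 groups, without a block, with Benjamini-Hochberg adjustment over all 20753 genes. The number of arrays limits the precision. Data were simulated for untreated KO against WT with 20753 genes, of which 200 were shifted. Of genes shifted by 0.5, 1 and 2 on the log2 scale 29%, 86.1% and 98.9% were recovered, with 4.3% false calls. The simulated noise was independent between arrays, without an effect of the replicate experiment. In the real data 20.1% of genes passed, a far larger share than was shifted, so recovery there may differ. Deviations from the group means correlated at 0.31 to 0.44 for arrays of the same replicate experiment and at -0.30 to -0.03 otherwise, so the numbers, which the design text ties to replicate experiments, pair the arrays.

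Named were Ppp1r15a, the 12 largest rises and 12 largest falls past the threshold with no overlap of arrays and a higher mean over the 75th percentile, and from each of 31 pathway lists the 4 called genes (or fewer) and the 1 uncalled gene that differed most. Other genes named, to complete a count or as examples, were chosen after their values were seen. The comparison, the gene lists and the tests were all chosen with earlier results of these data known. Of 92 named genes with several probe sets, 57 had another set with under 50% of the difference or the opposite sign (12 opposite). Called ones among them whose other sets are not given above include Ern1, Npnt, Tgm2, Plau, Sfrp1, Bmpr1b, Ptn and Cp. Further ones are Ccnd3, Cdk6, Rps3, Cryab, Slc39a8, Ndrg1 and Fads1. Promoters are RefSeq's on GRCm38.p6. Alternatives changed the normalization, the probe sets, the dim-gene filter, the prior, the arrays fitted, the block and the threshold. Some named genes are not reported here.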

Additional observations from a re-analysis of the deposited data

Results flagged for a closer look

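For 4 named genes the genotype difference under arsenite and the untreated one differed by the test of that difference itself. For Ppp1r15a the arsenite difference minus the untreated one was -3.43 on the log2 scale (limma, adjusted p = 0.004), as its WT signals reached 11.60 to 12.25 after arsenite and its KO signals 5.88 to 6.71. For Hspa1b it was 2.21 (adjusted p = 0.0254), for Maff 1.64 (adjusted p = 0.0319) and for Dusp1 1.55 (adjusted p = 0.0266). These 3 genes were lower in untreated KO than untreated WT cells on all arrays and overlapped between genotypes after arsenite.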

How the results depend on the processing

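With the authors' deposited p-values adjusted, 843 autosomal genes rose and 829 fell; at an adjusted p under 0.01 these were 1183 and 1126, and with at least a 2-fold change 608 and 577. Leaving out 1 untreated array gave 1451 to 1834 rises and 1482 to 1811 falls. The replicate block, which the pairing of the experiments allows, gave 2844 rises and 2764 falls; it lost none of the 138 named genes past the threshold, added 21 of the 30 others, and moved 18 of 62 counts of list members by over 1.5 times. The fit of the 6 untreated arrays alone lost 4 of the 138. The authors' p-values lost 53 of the 138, and leaving out 1 array lost 10 to 18. The count of genes whose genotype difference changed with arsenite was 12 with the replicate block and 1 to 60 without 1 array, and the count next to Ppp1r15a was 10 with the block. Without dim genes the medians of chromosomes 1, 4, 10 and 14 were 0.27, -0.24, -0.31 and 0.47. With the mean over probe sets that of chromosome 10 was -0.17. Leaving out 1 array moved chromosome 4 between -0.16 and -0.15 and chromosome 10 between -0.20 and -0.17. Eif4e, not past the threshold, turned from 0.28 to -0.17 with the mean over probe sets. No named gene past the threshold reversed under any alternative run. Signals under background limit the folds given as lower bounds.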

Other observations

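The clustered Pcdhb protocadherins, neuronal adhesion genes that lie side by side on chromosome 18, were looked at after their values were seen. Of 22 measured, 13 rose in untreated KO cells and none fell. Over all autosomal genes 11.2% rose and 10.8% fell, and on chromosome 18 11.5% rose. The WT means of all 13 lay under background, and those of Pcdhb7 and Pcdhb19 in KO cells too. The other 11 were at least 1.03-fold (Pcdhb12) to at least 14.3-fold (Pcdhb17) higher in KO cells, and Pcdhb17 was the member seen in KO cells alone. The genes are close copies of one another, so their probe sets may share signal.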
